A study of Mus musculus with 6 samples.

Results

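The 8 genes described here encode epidermal keratins of the mouse. *Krt6a*, *Krt6b*, *Krt16* and *Krt17* are the stress keratins, and *Krt1*, *Krt10*, *Krt2* and *Krt77* are the suprabasal keratins. They are 8 of the 15280 genes of an RNA-Seq table and were chosen by gene symbol with their values in these tumors and glands already known. The levels that chose them are the ones given below, so the difference between tumor and gland is given for these 8 genes as a description, with no test. The table holds 3 mammary tumors (libraries T11035, T11640 and T9232) and the normal, adjacent mammary gland of the same 3 mice (M11035, M11640 and M9232). The mice were parous transgenic BK5.ATF3 females, in which a bovine keratin 5 promoter drives the transcription factor ATF3 in the basal cells of stratified and mammary epithelium. Tumors of this line arise at an age of 6 to 12 months and were taken at a length of 1.5 cm. Both tissues carried the transgene, so the contrast is between tumor and gland and has no wild-type arm. The *Atf3* row itself had 4.47, 8.09 and 22.6 CPM (fragments on the gene, scaled to library size) in the glands and 13.4, 18.3 and 19.3 CPM in the tumors, and this difference did not pass the test used for the other genes below (log2 fold change 0.80, adjusted p = 0.223, limma). Whether reads of the transgene itself were counted on this row is not given in the sources used here, so its level cannot be read as that of the transgene.

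Keratins build the intermediate filaments of epithelial cells, and each filament pairs an acidic type I chain with a basic type II chain. In resting epidermis the basal layer makes keratins 5 and 14, and cells that leave it switch to keratins 1 and 10, with keratin 2 added in the upper layers and keratin 77 as a further type II chain of late layers and sweat ducts. Keratins 6, 16 and 17 are normally found in hair follicles, nails and mucosa, and they appear in the epidermis between the follicles after wounding, in psoriasis and in squamous tumors.

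The 5 type II genes lie on chromosome 15 and the 3 type I genes on chromosome 11 of the mouse genome (mm9), all on the minus strand. *Krt6b* (101506465 to 101510720) and *Krt6a* (101520363 to 101524738) are neighbors in the type II cluster, and *Krt2* (101641120 to 101648600), *Krt1* (101675859 to 101681217) and *Krt77* (101689163 to 101700136) are neighbors further along it. In the type I cluster, *Krt10* (99246568 to 99250678) is at a distance from the adjacent pair *Krt16* (100107405 to 100110276) and *Krt17* (100117531 to 100122343). The exons of none of the 8 overlapped those of another gene of the table.

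*Krt6a* and *Krt6b* are near copies, and their sequences are shown because they limit how far the reads can separate them. Their coding sequences were 97.8% identical (37 differences in 1662 aligned bases), and the longest identical run was 280 bases. Of 1555 coding windows as long as a read (76 bases), 790 were the same in both genes. The first line is such a window (coding bases 34 to 109 of both genes). The other two lines are the window with the most differences, 12 (coding bases 801 to 876), and capitals mark the bases that differ.
Krt6a and Krt6b, shared window: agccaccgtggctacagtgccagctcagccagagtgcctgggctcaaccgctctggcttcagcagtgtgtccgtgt
Krt6a, differing window: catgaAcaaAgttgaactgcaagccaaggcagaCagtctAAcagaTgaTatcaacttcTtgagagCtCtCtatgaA
Krt6b, differing window: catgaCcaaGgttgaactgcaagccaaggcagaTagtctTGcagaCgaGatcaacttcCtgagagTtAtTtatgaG
A read from the first window fits both genes, and a read from the second can be placed. Over the whole transcripts, 40.2% of the 76-base windows of *Krt6a* and 38.7% of those of *Krt6b* occurred in the protein-coding transcript of another gene. Most of these were shared between the copies (790 windows). *Krt6a* also shared 98 with *Krt5* and 30 with *Gm5414*, and *Krt6b* shared 19 and 65 with them. Reads were sequenced in pairs, so single windows can overstate the share of fragments that cannot be placed. For *Krt16* the share was 6.06%, all with *Krt14*, and for the other 5 genes it was 0%. How reads that fit both copies were counted is not given in the sources used here, so the separate values of *Krt6a* and *Krt6b* are less certain than their sum.

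RefSeq promoters (GRCm38.p6, minus strand) were available for 3 of the 8 genes, *Krt10*, *Krt2* and *Krt77*, and are printed because *Krt10* had the highest level of the 8 in the tumors and *Krt2* and *Krt77* were at opposite ends of their ranges in tumor T9232. Each line gives the 250 bases before the start site, and capitals mark matches, on either strand, to TATANA (the TATA box) or TTNNGNAA (the C/EBP site). *Krt10* is at chr11:99389365-99389614, *Krt2* at chr15:101818170-101818419 and *Krt77* at chr15:101869706-101869955.
Krt10: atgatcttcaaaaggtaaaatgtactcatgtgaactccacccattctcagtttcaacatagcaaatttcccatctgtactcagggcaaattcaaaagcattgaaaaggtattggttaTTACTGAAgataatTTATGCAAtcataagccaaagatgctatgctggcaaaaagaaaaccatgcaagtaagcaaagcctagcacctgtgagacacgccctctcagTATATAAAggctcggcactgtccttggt
Krt2: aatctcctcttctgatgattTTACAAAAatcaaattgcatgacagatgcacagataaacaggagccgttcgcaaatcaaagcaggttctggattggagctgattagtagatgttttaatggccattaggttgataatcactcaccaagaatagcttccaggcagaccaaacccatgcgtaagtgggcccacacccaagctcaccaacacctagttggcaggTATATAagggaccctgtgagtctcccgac
Krt77: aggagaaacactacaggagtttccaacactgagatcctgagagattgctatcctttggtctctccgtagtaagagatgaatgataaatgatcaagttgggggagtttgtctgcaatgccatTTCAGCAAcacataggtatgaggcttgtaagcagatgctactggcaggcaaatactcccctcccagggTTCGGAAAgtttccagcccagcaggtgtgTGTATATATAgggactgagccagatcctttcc
Each of the 3 held a TATANA match between 32 and 21 bases before the start, while 22.6% of all 32851 promoters held one anywhere in the window. In *Krt10* and *Krt77* these matches overlap one another. TTNNGNAA matched 2 times in *Krt10*, 1 time in *Krt2* and 2 times in *Krt77*, and 36.8% of all promoters held it. Neither TGANTCA (the AP-1 site, in 6.75% of all promoters) nor TGACGTCA (the CRE, in 1.55%) occurred in these 3 windows. These are matches of letters and do not show that a factor was bound.

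The stress keratins were near the limit of detection in the normal glands, and all but *Krt17* were among the abundant transcripts of the tumors. *Krt6a*, a type II keratin of activated epidermis and the follicle, was at 0.813, 0.165 and 1.50 CPM in glands M11035, M11640 and M9232 and at 407, 598 and 603 CPM in tumors T11035, T11640 and T9232. The tumors were far above the glands and differed among themselves by 1.48-fold at most. The mean was 0.828 ± 0.670 CPM (SD, n = 3) in the glands and 536 ± 112 CPM in the tumors, a ratio of 648. *Krt6b*, its near copy, was at 0.203, 0.661 and 0.684 CPM in the glands and at 642, 769 and 771 CPM in the tumors. It was the least variable of the 8 genes among the tumors (coefficient of variation 10.2%), and its ratio of means was 1410. Taken as a sum, *Krt6a* and *Krt6b* had 1.02, 0.826 and 2.19 CPM in the glands and 1049, 1367 and 1374 CPM in the tumors. This sum does not depend on how reads were split between the copies, but it would be too low if shared reads were left out. In a bulk tissue, a lower level from fewer keratinocytes cannot be told apart from less keratin RNA per cell.

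*Krt16*, the type I partner of keratin 6, was at 1.63, 0.661 and 1.37 CPM in the glands and at 475, 814 and 622 CPM in the tumors. The mean ratio was 523, and tumor T11640 was the highest. *Krt17*, the other type I stress keratin, was at 0.610, 0.496 and 1.23 CPM in the glands and at 38.7, 71.7 and 80.2 CPM in the tumors. Its tumors were clearly above its glands, but its ratio of 81.6 was the smallest among the 7 genes that had any fragment in the glands. Few fragments stood behind the gland levels: 16 for *Krt6a*, 10 for *Krt6b*, 22 for *Krt16* and 15 for *Krt17*, summed over the 3 glands. The counting intervals of the pooled ratios were correspondingly wide (95%, exact binomial), from 731 to 2803 for *Krt6b* and from 48.3 to 143 for *Krt17*. They cover counting error only and leave out the spread between mice. PCR copies of a fragment are not independent molecules, so the intervals can also be too narrow for counting error.

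The suprabasal keratins were also present in every tumor. *Krt10*, the type I keratin of the spinous layer, was the only member above the floor of detection by a wide margin in the glands, at 3.86, 6.94 and 4.51 CPM. The floor is taken as 3 fragments, or 0.393 to 0.610 CPM depending on the library. In the tumors *Krt10* reached 648, 1278 and 1065 CPM, a ratio of means of 195, and was the highest of the 8 genes there in CPM. *Krt1*, its type II partner, was at 0.813, 0.330 and 0.684 CPM in the glands and at 401, 562 and 363 CPM in the tumors, a ratio of 726. Only *Krt10* and *Krt16* were above the floor in all 3 glands.

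*Krt2*, a type II keratin of the upper layers, had 0 fragments in all 3 glands and 107, 204 and 34 fragments (19.9, 26.7 and 5.09 CPM) in the tumors. Set against the mean floor of the glands, its tumor level was higher by at least 34.1-fold. *Krt77* had 2 fragments in gland M11035 (0.407 CPM) and 0 in the other two, and 20.5, 76.3 and 107 CPM in the tumors. Its pooled ratio was 655, with a counting interval from 181 to 5410. These 2 genes had the lowest tumor levels of the suprabasal group and the widest spread among tumors, with coefficients of variation of 64.1% and 64.7%.

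**Figure D1:**
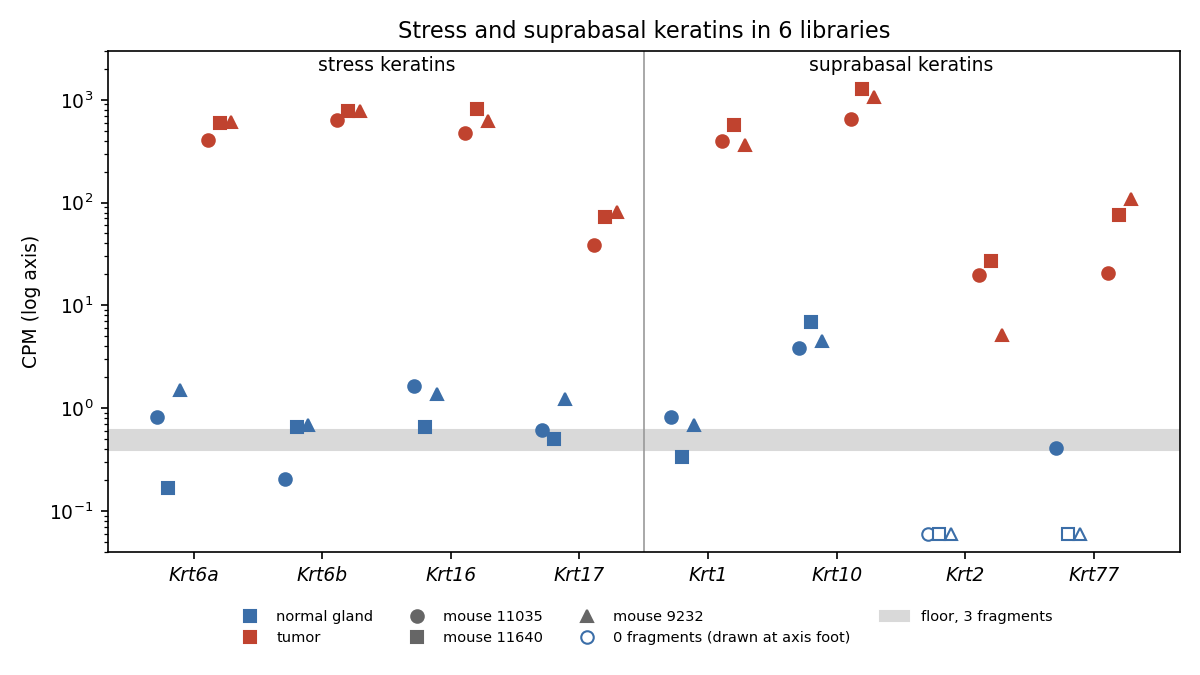
CPM (log axis) of the 8 keratins in each library, 1 point per library, with glands in blue, tumors in red and the mouse given by the marker shape. The gray band is the floor of 3 fragments, open symbols are 0 fragments, and for every gene the 3 tumors lie above the 3 glands.

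For all 8 genes the lowest tumor lay above the highest gland. Across the table this held for 27.6% of the 15280 genes, and because the 8 genes were chosen on this contrast nothing is read from their count. On the scale of log2(CPM + 0.5), the median of their 8 fold changes was 8.0, against a median near zero over all genes (-0.00). Within single mice the log2 difference ranged from 3.48 for *Krt2* in the mouse of T9232 to 9.84 for *Krt6b* in the mouse of T11035. Together the 8 genes held 41, 56 and 73 fragments in the glands, and 14249, 32020 and 24134 in the tumors. Their share of all gene fragments in the tumors was 0.278% (95% exact binomial interval 0.274% to 0.283%) in T11035, 0.410% in T11640 and 0.347% in T9232.

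Levels of different genes were compared per kilobase of exon, as CPM divided by exon length. In the tumors the order of the mean level was *Krt10* (476 ± 153 CPM per kb, SD, n = 3), *Krt16* (391 ± 104), *Krt6b* (327 ± 33.2), *Krt6a* (238 ± 49.5), *Krt1* (181 ± 43.2), *Krt17* (40.3 ± 13.9), *Krt77* (23.2 ± 15) and *Krt2* (6.60 ± 4.23). The first 6 stood in this order in each of the 3 tumors. The places of *Krt6a* and *Krt6b* in it may depend on how shared reads were counted. The ranges of neighbors were separate between *Krt6b* and *Krt6a* and between *Krt1* and *Krt17*, and every other pair of neighbors overlapped. By level per kilobase among 14891 genes, *Krt10* was rank 59, 30 and 48 in tumors T11035, T11640 and T9232. In the same tumors *Krt17* was rank 2160, 1240 and 1063, and *Krt2* was rank 5658, 4890 and 10287. In the glands *Krt10* was also first, at 2.44 ± 0.774 CPM per kb, and *Krt16* next at 0.748 ± 0.307. The order of the genes after them rested there on 16 fragments or fewer per gene and is not read.

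**Figure D2:**
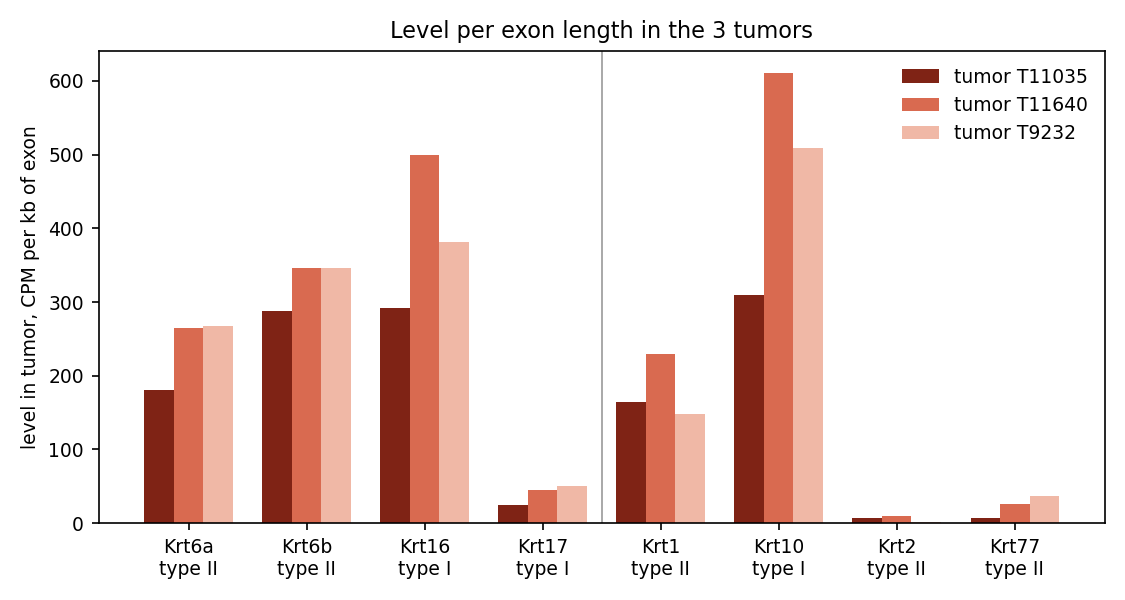
Level of the 8 keratins in CPM per kb of exon (linear axis from 0), 1 bar per tumor, with the stress keratins left of the line and the suprabasal keratins right of it. *Krt10* is the highest bar of each tumor, and *Krt17*, *Krt2* and *Krt77* are the lowest 3 in each.

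The pairs of type I and type II chains were not present at equal RNA level. *Krt6a* and *Krt6b* together with *Krt16* and *Krt17* gave a type II to type I ratio, per kilobase, of 1.48, 1.12 and 1.42 in tumors T11035, T11640 and T9232. In the suprabasal group the type I chain was the more abundant in every tumor, with type II to type I ratios of 0.578, 0.436 and 0.368. Over all keratin genes with a position, without the keratin-like *Krt222*, the ratio was 1.11, 0.878 and 0.942, between the ratios of these groups in each tumor. *Krt16* exceeded *Krt17* by 11.9, 11 and 7.51 times per kilobase. *Krt1* was at 0.531, 0.377 and 0.292 of *Krt10*. The stress group as a whole exceeded the suprabasal group in each tumor, by 1.61, 1.32 and 1.50 times, a mean of 1.48 ± 0.147 (SD, n = 3). This ratio and the stress type II to type I ratio would be too low if reads shared by *Krt6a* and *Krt6b* were left out.

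Against the basal layer keratins *Krt5* and *Krt14*, the 8 genes together were at 1.91, 2.41 and 2.07 times their summed level per kilobase in the tumors. In the glands the same ratio was 0.518, 0.260 and 0.181, from few fragments. Per kilobase *Krt10* was at 0.742, 1.35 and 1.06 of *Krt5* in the tumors, and *Krt16* was at 0.699, 1.11 and 0.792. For *Krt17* the tissues overlapped on this scale, with ratios to *Krt5* of 0.0851, 0.0250 and 0.0474 in the glands and 0.0589, 0.101 and 0.106 in the tumors. The 8 members made up more of the tumor keratin RNA than the other 34 positioned keratins together (*Krt222* left out as keratin-like), by 1.17, 1.42 and 1.37 times per kilobase, whereas in the glands they were at 0.104, 0.0809 and 0.0570 of it.

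The 3 tumors did not rank alike for all members. T11035 was the lowest tumor for 6 of the 8 genes and the highest for 0. The order T11035, T11640, T9232 from low to high held for *Krt6a*, *Krt6b*, *Krt17* and *Krt77*, although the upper tumors were close for *Krt6a* and *Krt6b*. The order T9232, T11035, T11640 held for *Krt1* and *Krt2*, and for *Krt16* and *Krt10* it was T11035, T9232, T11640. Both *Krt2* and *Krt77* were higher in T11640 than in T11035, but *Krt2* was lowest in T9232, where *Krt77* was highest. Their ratio per kilobase, *Krt77* over *Krt2*, was 0.917 in T11035, 2.54 in T11640 and 18.8 in T9232. With 1 tumor per mouse, this spread has no replicate within a mouse.

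**Figure D3:**
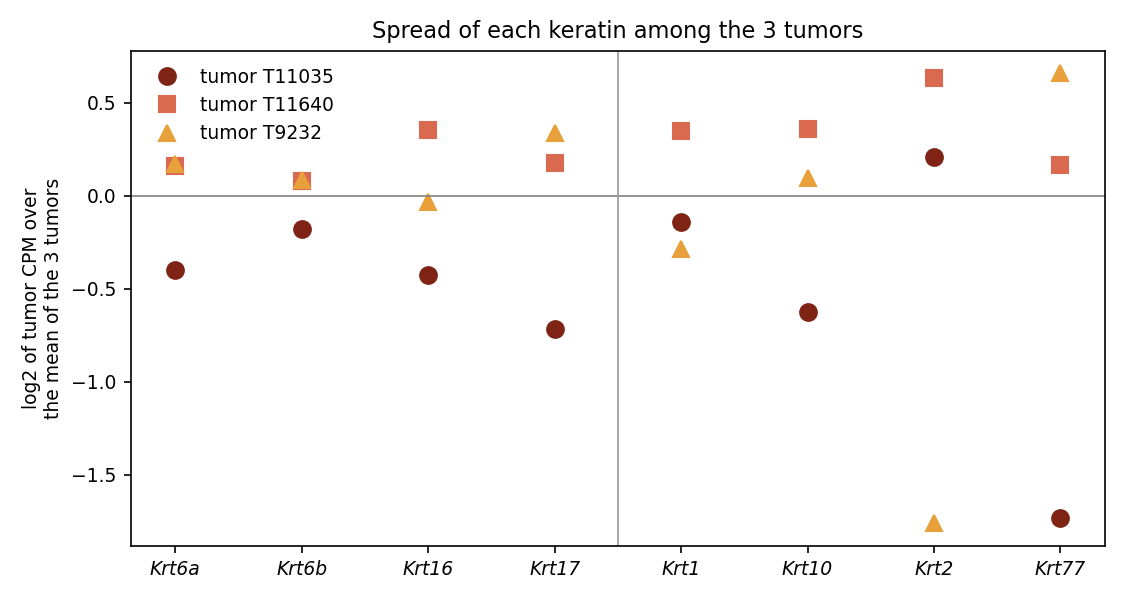
Log2 of each tumor's CPM over the mean of the 3 tumors, for the 8 keratins, 1 symbol per tumor. *Krt6b* shows the tightest points, and *Krt2* and *Krt77* the widest, with T9232 lowest for *Krt2* and highest for *Krt77*.

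The orders were also counted in the lists used below, a comparison chosen after the values were seen. Of 19 genes of the cornified envelope and its junctions, 13 (68.4%) ranked the tumors as *Krt77* did, among them *Lor*, *Ivl*, *Sbsn*, *Krtdap* and *Asprv1*. Of 21 keratins of the hair and inner root sheath, 1 (4.76%) had this order. The most common order among these 21 was that of *Krt10* and *Krt16*, with 11 genes (52.4%), and 4 (21.1%) of the 19 shared it. The order of *Krt2* and *Krt1* was found in 9 (42.9%) of the 21, among them *Krt25*, *Krt27* and *Krt73*, and in 2 (10.5%) of the 19, *Tgm3* and *Dsg1a*. Over all 14242 genes with a tumor mean of at least 1 CPM, 24.0% had the order of *Krt77*, 17.0% that of *Krt10* and 13.8% that of *Krt2*. The genes of a list share the same 3 libraries, so these counts are a description and were not tested.

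The genes whose profile over the 6 libraries was most like that of a member were searched among 14704 genes, by the root mean square difference of log2(CPM + 0.5) after centering each gene. *Rptn* (repetin), an envelope protein of the fused S100 type, was the nearest gene to *Krt6a* (0.35) and to *Krt6b* (0.40). *Hrnr* (hornerin), of the same protein type, was nearest to *Krt1* (0.26) and among the nearest 3 of *Krt6a*, *Krt6b* and *Krt16*. *Krt16* was nearest to *BC100530* (0.29), followed by *3830417A13Rik*. The nearest 3 of *Krt6a* also held *Stfa3*, a stefin that inhibits cysteine proteases, and those of *Krt6b* held *Dsc1*, the suprabasal desmosomal cadherin desmocollin 1. *Krt1* had *BC100530* and *Tchh* (trichohyalin, of the inner root sheath) as its other neighbors. *Krt17* had the closest match of all members, *Lypd3* (0.14), followed by *Ceacam19* and the desmosomal tetraspan gene *Perp*. *Krt10* was nearest to *Csta* (cystatin A, 0.26), *Krt25* and *Sprr1b*. The nearest genes of *Krt2* were *Lyg2* (0.25), *Krt72-ps* and *Olfr810*, and those of *Krt77* were *Sprr2e* (0.25), *Tmprss11e* and *Slc6a14*. Each profile spans both tissues, so these distances include the difference between tumor and gland.

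The other 36 keratin genes of the table were not members and could be tested between tumor and gland. The test was limma's moderated test on log2(CPM + 0.5), and a gene was called at an adjusted p (Benjamini-Hochberg, over all 15280 genes) of at most 0.05 with a fold change of at least 2. Over the whole table, 14.5% of the genes were called higher in the tumors and 13.7% lower. Of the 36 keratins, 35 were called higher and 1 lower, with a median log2 fold change of 3.04. In 25 of the 36 the 3 glands were at or under the floor, as in 506 of all 15280 genes. With these genes set to the fold against the floor the median was 3.20. The authors removed genes with few fragments over all samples, and the lowest total left was 11. A gene at or under the floor in all 3 glands is thus in the table only through its tumor fragments. The direction of these 25 was largely fixed in advance, and nothing is read from their count.

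All 3 basal epidermal keratins rose. *Krt5*, which pairs with *Krt14* in the basal layer, had 9.96, 27.6 and 36.1 CPM in the glands and 913, 989 and 1055 CPM in the tumors (log2 fold change 5.48, adjusted p = 2.02e-05, limma). *Krt14* had 6.10, 8.59 and 19.8 CPM in the glands and 440, 686 and 629 CPM in the tumors (5.75, adjusted p = 1.27e-05). The largest rise of the class was that of *Krt15* (6.23, adjusted p = 6.53e-05), a keratin of basal cells and the follicle bulge. Each gland held at least 30 fragments of *Krt5* and of *Krt14*, whereas *Krt10*, the best detected of the 8 members, had 19, 42 and 33. Of 5 listed simple epithelial keratins 4 were in the table, without *Krt20*. All 4 rose by less, with a median log2 fold change of 1.51, led by *Krt7* (2.87, adjusted p = 0.00112).

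Of 24 listed keratins of the hair and inner root sheath 21 were in the table, without *Krt40*, *Krt72* and *Krt74*. All 21 rose, with a median of 2.99. In 20 of the 21 the 3 glands were at or under the floor. These 20 are in the table only through their tumor fragments, so nothing is read from their count. The largest rise was that of *Krt73*, a type II keratin of the inner root sheath, from 1.02, 0.661 and 0.137 CPM to 274, 409 and 163 CPM (7.99, adjusted p = 3.42e-06, limma). Per kilobase, *Krt73* was the keratin next below *Krt1* in the tumors, rank 8 of 43, while *Krt17* was rank 12, *Krt77* rank 16 and *Krt2* rank 21. Of the 21, 7 had 0 fragments in all glands. Of 9 listed keratins of other stratified epithelia 5 were in the table, without *Krt9*, *Krt12*, *Krt24* and *Krt76*. All 5 rose, 4 of them from glands at or under the floor. The largest change was in *Krt80* (4.90, adjusted p = 0.000238). Among the 3 keratins outside these classes, *Krt23* rose most (6.04, adjusted p = 2.37e-06), and *Krt222*, a short keratin-like gene, fell from 13.8 ± 3.92 to 3.63 ± 0.761 CPM (SD, n = 3), a log2 fold change of -1.77 (adjusted p = 0.00146).

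**Figure D4:**
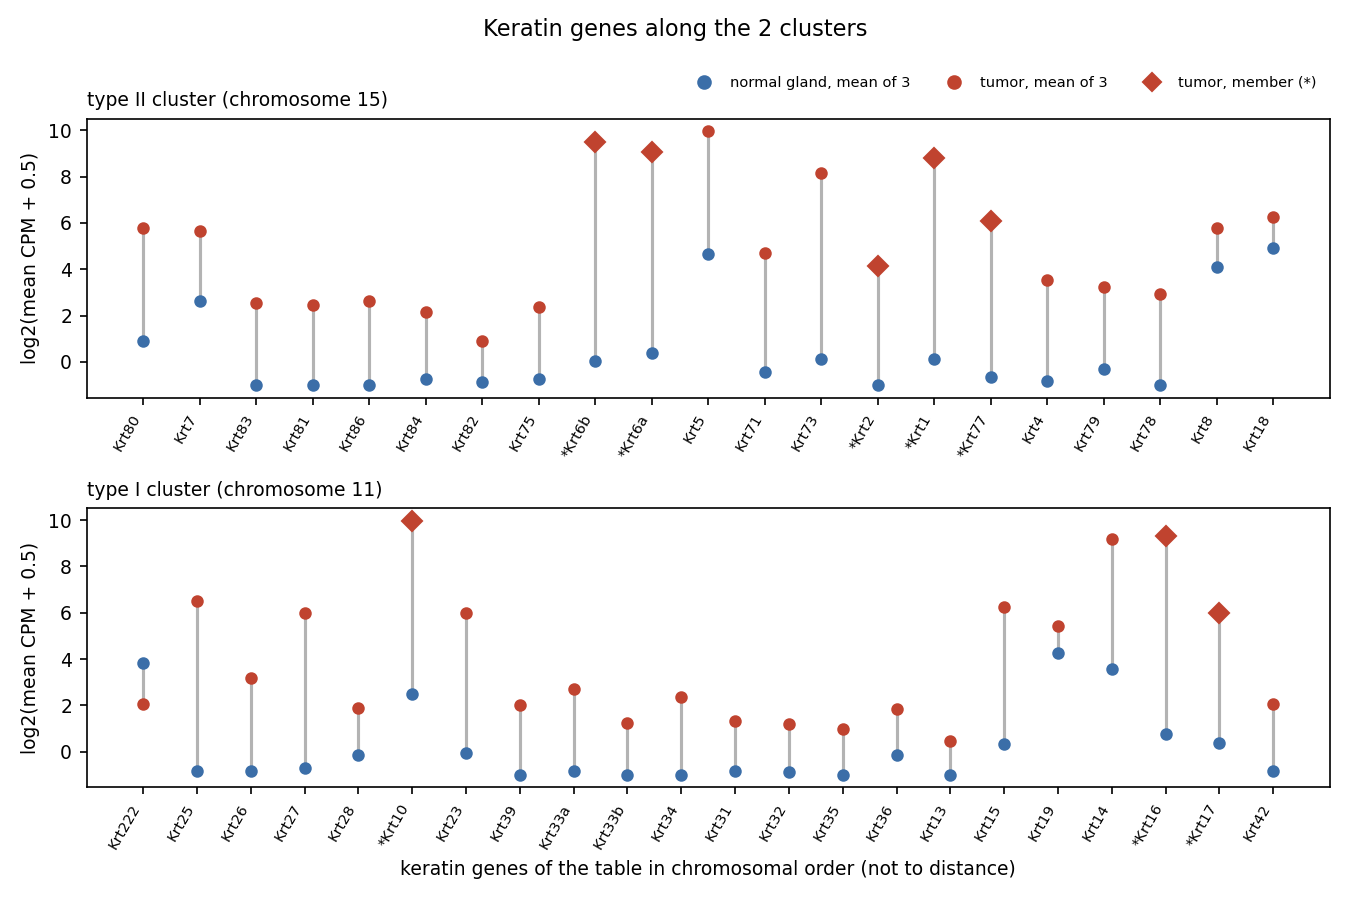
Mean level of each keratin gene, as log2(mean CPM + 0.5), in the 3 glands (blue) and the 3 tumors (red), in chromosomal order along the clusters of chromosomes 15 (21 genes, including the type I gene *Krt18*) and 11 (22 genes). Diamonds and asterisks mark the 8 members. The other keratins around them also had higher means in tumor than in gland, except *Krt222*, whose tumor point lies below its gland point.

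Keratin filaments of upper epidermal cells are anchored in desmosomes, bundled by filaggrin-type proteins and enclosed by the cornified envelope. Of 20 genes for these proteins and their enzymes, 19 were in the table, and *Flg*, the filaggrin gene itself, was not. All 19 were called higher in the tumors, with a median log2 fold change of 6.09 (6.42 with genes at the floor in the glands set to their bound). The largest rise was that of *Dsc1*, from 1.83, 0.330 and 0.958 CPM to 648, 1292 and 770 CPM (9.26, adjusted p = 1.67e-06, limma). The list was compiled with earlier results of these tumors known, so its direction is not independent evidence. Under each of the 13 alternative settings the 19 genes were called.

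Activated keratinocytes, which make the stress keratins, also make a set of cytokines, alarmins, growth factors and envelope precursors. Of 25 such genes, 23 were called higher, 1 lower and 1 was not called, with a median log2 fold change of 4.60. The largest rise was that of *Sprr2d*, a small proline-rich envelope precursor, with 0, 1 and 2 fragments in the glands and 66.4, 214 and 249 CPM in the tumors (7.91, adjusted p = 7.62e-06, limma). *Lcn2*, an antimicrobial siderophore-binding protein, was called lower, from 90.9, 251 and 593 CPM to 111, 73.7 and 39.0 CPM (-1.79, adjusted p = 0.0474). The tumors overlapped the glands for *Lcn2*, and its call was lost with mouse as a block (adjusted p = 0.0719) and without 5 of the 6 single libraries, all but gland M11035. *Slpi*, a secreted protease inhibitor, was the gene not called, with a log2 fold change of 0.57. In bulk tissue, the cell type that made the RNA of each listed gene cannot be told.

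Of 29 transcription factors and receptors that act on epidermal or stress keratin genes, 27 were in the table, and *Fosl1* and *Sox2* were not. Of the 27, 21 were called higher, 1 lower and 5 were not called, with a median log2 fold change of 1.90. The largest rise was that of *Grhl3*, a grainyhead factor of the epidermal barrier, from 0.813, 1.16 and 0.684 CPM to 63.5, 94.8 and 104 CPM (5.97, adjusted p = 1.76e-06, limma). *Cebpa*, a C/EBP factor of suprabasal keratinocytes that is also a factor of fat cells, fell from 72.2, 88.7 and 57.3 CPM to 13, 15.5 and 27.0 CPM (-1.99, adjusted p = 0.000725). The genes not called were *Tfap2b*, *Notch2*, *Notch3*, *Stat3* and *Gata3*. The medians of all 3 lists are to be set against the median of all genes, -0.00, and the lists were described by counts only.

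**Figure D5:**
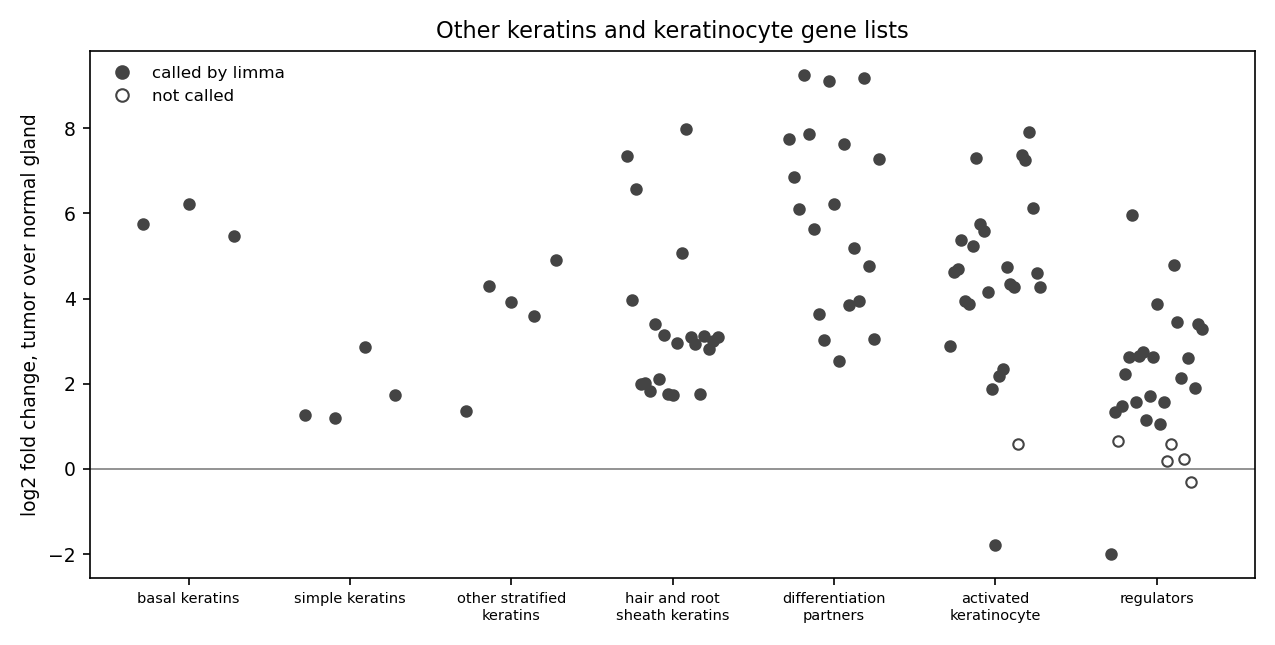
Log2 fold change of tumor over gland for each gene of the keratin classes and of the lists of differentiation partners, activated keratinocyte genes and regulators, 1 point per gene, filled where called by limma. Nearly all points lie above 0, and the points below it are *Lcn2*, *Cebpa* and the uncalled *Tfap2b*.

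Markers of other cell types also differed between tumor and gland, in both directions. The 8 adipocyte markers were all called lower, and their summed level was 3131 to 6315 CPM in the glands and 159 to 215 CPM in the tumors. Of 8 general epithelial markers, 6 were called higher and 2 were not called, with sums of 206 to 447 CPM in the glands and 795 to 996 CPM in the tumors. The summed level of the 8 keratins was 8.34 to 9.99 CPM in the glands and 2651 to 4196 CPM in the tumors. Of 5 markers of hormone-sensing luminal cells 4 were called lower, and of 4 contractile myoepithelial markers 2 were called lower. Of 8 neutrophil markers, 3 were called higher (*Csf3r*, *Cxcr2* and *Mmp8*) and 3 lower (*Mpo*, *Ngp* and *Ltf*). The part of these changes in tissue makeup in the keratin levels was not tested.

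Skin and its appendages hold the same keratins, so their markers were read beside them. All 10 hair follicle markers were called higher, 6 of which are keratins of the list above. In 8 of the 10 the 3 glands were at or under the floor, so these are in the table only through their tumor fragments. The sum of all 10 was 3.96 to 8.13 CPM in the glands and 869 to 1744 CPM in the tumors, most of it *Tchh* (893, 1468 and 721 CPM). The follicle transcription factors *Foxn1* and *Hoxc13* had 0 fragments in all glands and stayed low in the tumors, at 3.54, 3.41 and 3.45 CPM and at 0.186, 3.67 and 1.35 CPM. Of 5 listed melanocyte markers only *Tyr* and *Pmel* were in the table. Neither was called, with sums of 2.97 to 7.12 CPM in the glands and 3.01 to 4.94 CPM in the tumors. Of 4 listed sebaceous gland markers only *Mc5r* and *Scd3* were in the table. *Mc5r* had 0 fragments in the 3 tumors and *Scd3* was called lower, with sums of 3.30 to 5.69 CPM in the glands and 0.749 to 1.30 CPM in the tumors. Whether overlying skin was part of a dissected tumor was not tested.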

How the data were processed

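Total RNA of 3 BK5.ATF3 mammary tumors and 3 matched adjacent normal glands was made into libraries with the Ovation RNA-Seq System V2 and sequenced as 2 × 76 bp pairs. The submitters' processing notes name CASAVA 1.8.2, TopHat2 2.0.3, HTSeq 0.5.3p9, edgeR 3.6.1 and mm9. The authors counted fragments per RefSeq gene and deposited 1 normalized signal per gene, in CPM on edgeR's effective library size. They removed genes with few fragments over all samples, and the lowest total left was 11. How fragments that fit several genes were treated is not given in the sources used here. Dividing by the step between values gave whole fragments for 100% of the genes in every library (tolerance 0.1 fragment). Depth was 4750989 to 7806908 fragments on genes. Libraries were grouped by the tissue and mouse in the labels, and 0 columns were left out.

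The 8 genes and all lists were chosen with earlier results of these data known. The test of other genes was limma (version 3.58.1, R version 4.3.3), two-sided, with a variance trend and thresholds from the paper's methods. It used log2 of CPM plus a pseudocount of 0.5, with no filter beyond that of the authors. For a single gene, exact permutation of 3 tumors and 3 glands gives p = 0.1 at the smallest. Each mouse gave both tissues, so the mouse numbers pair the libraries. Across 14712 genes, the correlation of the paired libraries' deviations (each from its tissue mean) was 0.107, 0.151 and 0.0168. The block is an alternative, since the study's methods name none. Other alternatives were pseudocounts of 0.1 and 1, a filter at 1 CPM, edgeR 4.0.16 (also with DESeq2 size factors) and DESeq2 1.42.0 on the recovered fragments, and leaving out each library. Named beyond the 8 genes were *Krt5*, *Krt14*, the called gene with the largest rise and fall of each list or class, the nearest 3 profiles of each member, and markers listed at 0. Other names were chosen after their values were seen. Positions and exon lengths came from GENCODE vM1 (mm9), which placed 14891 of the 15280 genes. Shared windows were searched in its protein-coding transcripts only, so pseudogenes were not covered. Exact binomial intervals (95%) for counting error were computed for pooled ratios of tumor to gland, ratios of single genes and shares of fragments. Ratios of summed genes have none.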

Additional observations from a re-analysis of the deposited data

How the results depend on the processing

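The 8 keratins were chosen on the contrast of tumor and gland, and for each the lowest tumor lay above the highest gland. A pseudocount or a left-out library could not reverse this direction, so nothing is read from its being kept. The size of the median log2 difference (8.0) was run under 9 alternative settings. This size depended on the scale, since the glands held few fragments. It was 7.71 with a pseudocount of 1, 8.65 with one of 0.1 and 9.14 with edgeR on DESeq2 size factors, and between 7.80 and 8.22 when 1 library was left out. The per-kilobase ratio of stress to suprabasal keratins (1.48) lay between 1.41 and 1.56 when a tumor was left out. Without 1 library, the calls numbered 3774 to 4374 over all genes (4309 in all), 31 to 35 among the other 36 keratins, 22 to 24 among the activated keratinocyte genes, 19 to 22 among the regulators and 19 among the differentiation partners. With mouse as a replicate block, 4298 genes, 35 other keratins, 23 activated keratinocyte genes, 22 regulators and 19 partners were called. The block ended the calls of *Krt13* and *Lcn2* in these lists and no others. The keratins whose call was lost without at least 1 library were *Krt13*, *Krt18*, *Krt19*, *Krt32*, *Krt35*, *Krt36* and *Krt81*, of which *Krt13*, *Krt32* and *Krt35* had a tumor mean under 2 CPM. In the other lists, *Areg*, *Lcn2*, *Nfe2l2*, *Gli1*, *Jun* and *Junb* lost the call without at least 1 library. With 3 tumors and few gland fragments, depth limits the folds of *Krt2* and *Krt77* most.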
